A study of Homo sapiens with 5 samples.

Results

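The genes described here encode the machinery that docks, primes, fuses and recycles synaptic vesicles. A set of 37 presynaptic genes was taken from known function and looked up among the 40263 genes listed in any of the count files. The members were chosen with counts of both cell lines in view, so the difference between the lines is given for them as a description, with no p-value. RNA-seq had been carried out on human 501Mel melanoma cells (2 libraries) and on Hermes 3A cells, an immortalised but untransformed human melanocyte line (3 libraries). Both lines had been infected with a lentivirus expressing shBPTF, an shRNA against the NURF chromatin-remodelling subunit BPTF, and selected with puromycin. Which shRNA construct was sequenced is not given in the sources used here. All 5 libraries carry shBPTF and no control library was analysed here, so the values compare 2 cell lines in the silenced state and give no effect of the silencing. Each group is 1 cell line, so that melanoma against melanocyte and line against line cannot be told apart. The culture medium differed as well. The paper lists TPA, cholera toxin, stem cell factor and endothelin-1 in the medium of Hermes 3A cells and none of these for 501Mel cells. An effect of these additions cannot be told apart from a difference between the lines.

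In a nerve terminal, a vesicle SNARE protein pairs with SNAREs of the plasma membrane and draws the membranes together. UNC13 and RIM proteins prepare docked vesicles, RAB3 GTPases tether them, synaptotagmins trigger fusion when calcium enters, and dynamin and synaptojanin recover the membrane afterwards. Melanocytes arise from the neural crest, as do peripheral neurons, and move lysosome-related melanosomes with RAB GTPases and SNAREs of related families.

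The libraries held 43032311 and 37856675 counts for 501Mel and 41653084, 40865034 and 30073071 for Hermes 3A, where 3 counts amount to 0.0697 to 0.0998 CPM (counts per 1000000 counted reads). Hermes 3A replicate 1 stood somewhat apart. Its log2 CPM correlated across genes with replicates 2 and 3 at r = 0.978 and 0.975, against 0.989 between that pair, and its median absolute log2 difference from them was 0.339 and 0.356, against 0.185. Results that rest on it are therefore given with and without it. The 7 melanocyte markers MITF, SOX10, PMEL, MLANA, TYR, TYRP1 and DCT summed to 12718 and 19661 CPM in 501Mel cells and to between 31651 and 32728 CPM in Hermes 3A cells. DCT was low in Hermes 3A cells, at 7.37 to 13.1 CPM, against 1068 and 1300 CPM in 501Mel cells. Of 5 keratinocyte markers, 3 were listed in both lines, and the list summed to 0.264 and 0.442 CPM in 501Mel cells and 0.816 to 0.998 CPM in Hermes 3A cells. The 5 fibroblast markers summed to 2.62 to 10.6 CPM and 2.46 to 10.2 CPM. BPTF itself had 65.8 and 57.8 CPM in 501Mel cells and 45.8, 51.6 and 54.1 CPM in Hermes 3A cells.

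Promoters were searched for letters that matter to neuronal and melanocyte genes, in the 250 bases before each RefSeq start on GRCh38.p14, on both strands. RefSeq windows matched 30 of the 37 members, with 48 windows in all, and SNAP25, SYT7, SYN3, SYNGR3, CPLX1, RIMS2 and DOC2A had no entry. The sequences below belong to the members with the widest gap between the lines in each direction (RAB3B and SYT1), to RAB3C and SYT5, which have the largest difference in mean CPM within the RAB3 and SYT genes, and to UNC13A and SYN1, which were chosen after their motif matches were seen. Each is printed on the coding strand of its gene up to an exon annotated by GENCODE 29, and capitals mark a searched motif. The RAB3C and SYT1 letters lie inside the annotated genes, downstream of the gene starts at 58582221 and 78863993.
RAB3B: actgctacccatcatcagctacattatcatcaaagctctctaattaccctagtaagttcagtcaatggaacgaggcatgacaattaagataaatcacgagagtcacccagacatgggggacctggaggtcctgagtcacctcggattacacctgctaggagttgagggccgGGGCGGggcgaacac
RAB3C: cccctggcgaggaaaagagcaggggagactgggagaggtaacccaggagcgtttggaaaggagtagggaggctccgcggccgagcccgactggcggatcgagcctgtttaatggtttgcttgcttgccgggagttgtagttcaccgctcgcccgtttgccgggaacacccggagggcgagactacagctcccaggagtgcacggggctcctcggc
SYT1: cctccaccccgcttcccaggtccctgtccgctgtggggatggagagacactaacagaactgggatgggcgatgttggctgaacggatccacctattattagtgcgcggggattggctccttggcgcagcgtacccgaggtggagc
SYT5: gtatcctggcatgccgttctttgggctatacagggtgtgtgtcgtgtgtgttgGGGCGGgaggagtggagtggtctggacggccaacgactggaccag
UNC13A: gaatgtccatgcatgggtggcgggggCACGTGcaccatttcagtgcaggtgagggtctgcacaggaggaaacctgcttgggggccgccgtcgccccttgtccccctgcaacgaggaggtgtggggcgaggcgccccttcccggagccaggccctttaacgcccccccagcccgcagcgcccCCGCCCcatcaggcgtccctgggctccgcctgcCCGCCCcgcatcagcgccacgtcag
SYN1: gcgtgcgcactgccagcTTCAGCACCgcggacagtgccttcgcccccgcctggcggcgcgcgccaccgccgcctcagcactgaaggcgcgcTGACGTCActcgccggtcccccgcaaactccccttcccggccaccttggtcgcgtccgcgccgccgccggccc
They lie at chr1:51990765-51990950 (minus strand), chr5:58582825-58583039 (plus), chr12:78864524-78864668 (plus), chr19:55180442-55180539 (minus), chr19:17688366-17688604 (minus) and chrX:47619944-47620107 (minus), in that order. The RE1 element is bound by REST, the repressor of neuronal genes, and the letters TTCAGCACC of its left part and those of its right part were searched apart. The left part was found in 1 of the 48 windows, that of SYN1, and in 0.288% of 35116 windows of all genes. The right part was found in the UNC13A window, where it runs past the printed letters, and in 0.199% of all windows. Only exact matches were counted for both parts. In the SYN1 letters, the left part is closely followed by a stretch that differs from the right part at 1 base, which the search did not count. Whether a window holds a whole RE1 element with such a difference was therefore not tested. The E-box CACGTG, a motif of MITF and other helix-loop-helix factors, was found in the UNC13A window (6.34% of all windows), and the M-box TCATGTG in the SV2B window (2.52%). The cAMP response element TGACGTCA was found in the SYN1 window (1.65%). GC boxes (GGGCGG) lay in 30 of the 48 windows, or 62.5%, against 42.6% of all windows, and the windows of the members had a median GC content of 66.4% against 58.0%. The RAB3C letters hold none of these motifs, and the RAB3B letters hold 1 GC box. These are matches of letters and not measured sites, and REST itself had 36.4 and 28.6 CPM in 501Mel cells and 31.3, 33.2 and 34.8 CPM in Hermes 3A cells.

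Of the 37 members, 35 were listed in the files of both lines and 29 passed the filter on low counts. UNC13C, a priming factor, and SYT4, a synaptotagmin, were listed only in the 501Mel files, with 9 and 1 counts and with 4 and 7 counts. RIMS1, an active zone scaffold, and SNAP91, a clathrin adaptor, had 3 or fewer counts in every library. CPLX2, SYN2, SV2B and SV2C also failed the filter, with at most 17 counts in any library. RNA of every role in the release machinery was thus counted in both lines, while 1 or more paralogues in the RIMS, CPLX, SYN and SV2 families were close to the floor. The members that passed include those that did so through one line alone, so no share or median over them is used as support.

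**Figure D1:**
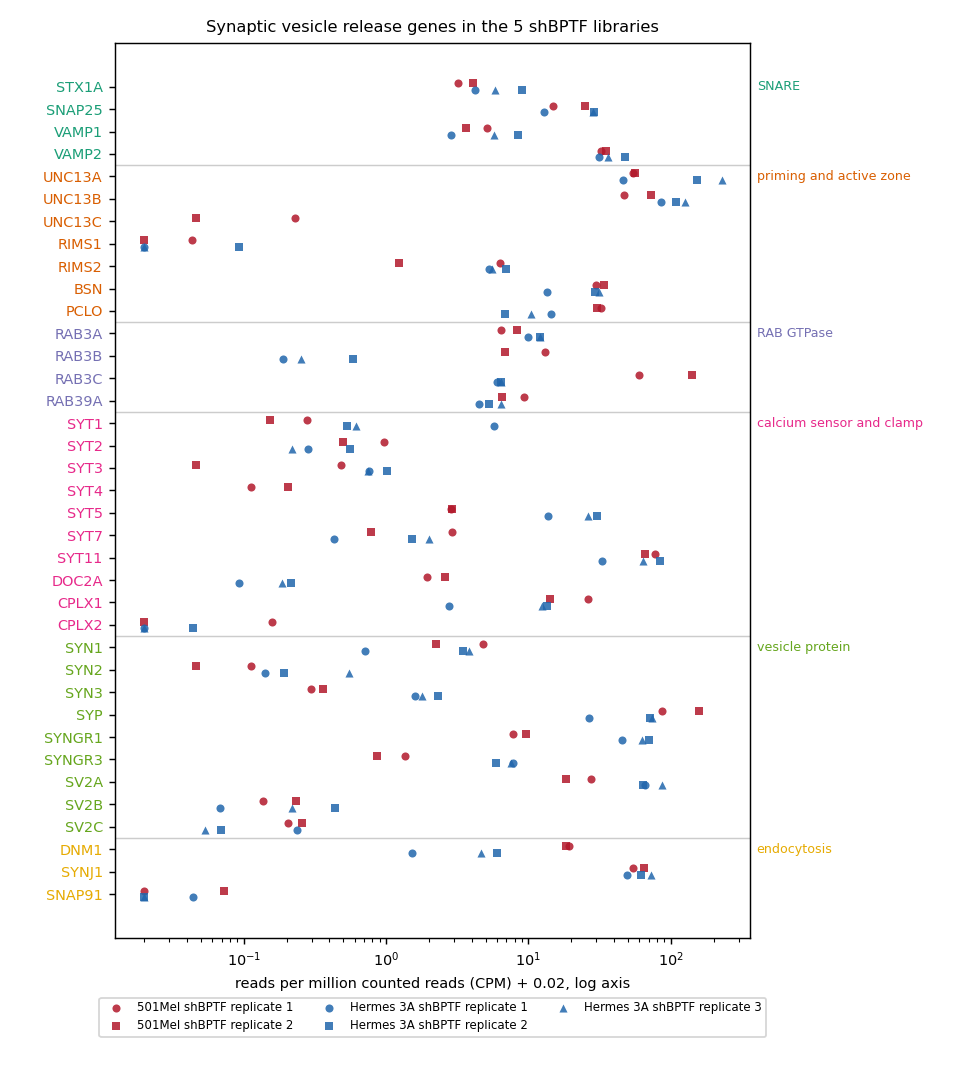
Level of each of the 37 genes in the 5 shBPTF libraries, in CPM with 0.02 added so that 0 can be drawn, on a log axis, with genes grouped by role. Red marks are 501Mel libraries and blue marks Hermes 3A libraries. RAB3B, RAB3C and DOC2A lie to the right in red, and SYT5, SYNGR1 and SYNGR3 to the right in blue.

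Levels between genes were compared per kilobase of annotated exon. In 501Mel cells the highest levels were those of the vesicle tetraspanin SYP, at 23.4 CPM per kb ± 9.64 (SD, n = 2), SYT11 at 13.7 ± 1.64, RAB3C at 10.4 ± 5.97, VAMP2 at 10.3 ± 0.535 and CPLX1 at 8.33 ± 3.53. The gap from SYP to SYT11 was about as large as the SD of SYP, and the spread of RAB3C covers the distance to its neighbours in this order. In Hermes 3A cells the order was SV2A at 14.97 CPM per kb ± 2.74 (SD, n = 3), UNC13A at 12.8 ± 8.14, VAMP2 at 11.8 ± 2.50, SYT11 at 11.5 ± 4.88, SYP at 11.03 ± 5.13 and SYNGR1 at 8.57 ± 1.81. None of these 6 was separated from the next by more than its SD. The order depends on the length used. Per kilobase of the longest annotated transcript, the level of SYP was 48.8 ± 20.1 in 501Mel cells against 23.03 ± 10.7 in Hermes 3A cells, the highest in both lines, and in Hermes 3A cells VAMP2 (17.9 ± 3.797), SV2A (16.4 ± 2.99), UNC13A (14.5 ± 9.25), SYNGR1 (13.6 ± 2.87) and SYT11 (11.5 ± 4.88) followed. VAMP2 and SYP stood among the leading 5 in both lines by either length.

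Of the 4 SNARE genes, 3 overlapped between the lines. Over all genes, the libraries of the lines did not overlap for 69.9%, and nothing is read from a count among 4 genes. VAMP2, the vesicle SNARE, had 32.4 and 34.9 CPM in 501Mel cells and 31.4, 47.4 and 36.5 CPM in Hermes 3A cells, a log2 difference (501Mel minus Hermes 3A) of -0.25 ± 0.19 (SE). SNAP25, a plasma membrane SNARE, had 14.8 and 24.9 CPM against 12.9, 28.9 and 28.3 CPM, a log2 difference of -0.28 ± 0.38. The groups overlap for both genes, through Hermes 3A replicate 1 alone. VAMP1, which overlaps VAMP2 in function, had 5.14 and 3.65 CPM against 2.83, 8.39 and 5.69 CPM. Its log2 difference was -0.41 ± 0.46, and the libraries overlap again through Hermes 3A replicate 1 alone. STX1A, the partner of SNAP25 on the plasma membrane, had 3.21 and 4.04 CPM in 501Mel cells and 4.20, 9.03 and 5.85 CPM in Hermes 3A cells. All 3 Hermes 3A values of STX1A lie above both 501Mel values, but the lowest exceeds the nearest by less than the 501Mel libraries differ. Its log2 difference was -0.86 ± 0.39. With Hermes 3A replicate 1 left out, the log2 differences of VAMP2, SNAP25, VAMP1 and STX1A were -0.37, -0.57, -0.73 and -1.08. Exons of other genes cover 17.9% of the STX1A exons (BUD23, opposite strand), 13.2% of those of VAMP2 and 9.47% of those of VAMP1, and reads from these stretches cannot be assigned here because the strand setting of the counting is not given in the sources used here.

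Among the priming and active zone genes, PCLO and UNC13B differed in opposite directions. PCLO (chromosome 7 of GRCh38, 82754013 to 83162930), the giant scaffold piccolo, had 32.2 and 30.6 CPM in 501Mel cells and 14.4, 6.803 and 10.4 CPM in Hermes 3A cells, a log2 difference of 1.50 ± 0.33. The nearest library of Hermes 3A cells is under 0.5 of either 501Mel library. BSN, the related scaffold bassoon, had 30.0 and 34.2 CPM against 13.4, 29.3 and 31.4 CPM, with overlapping groups and a log2 difference of 0.33 ± 0.33, or 0.03 without Hermes 3A replicate 1.

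UNC13B (chromosome 9, 35161992 to 35405338), a priming factor found also outside neurons, had 46.7 and 72.7 CPM in 501Mel cells and 86.1, 109 and 125 CPM in Hermes 3A cells, a log2 difference of -0.89 ± 0.24. UNC13A (chromosome 19, 17601328 to 17688365), the main priming factor of excitatory synapses, had 54.1 and 55.9 CPM in 501Mel cells and 46.5, 154 and 228 CPM in Hermes 3A cells. Hermes 3A replicate 1 lies below both 501Mel libraries for UNC13A and the remaining libraries lie far above them, so that the groups overlap and the log2 difference of -1.42 ± 0.55 becomes -1.85 without that library. RIMS2, an active zone scaffold that binds RAB3, had 6.25 and 1.22 CPM against 5.23, 6.95 and 5.49 CPM, and here it is 501Mel replicate 2 that departs from the other 4 libraries.

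RAB3B and RAB3C held the largest differences in favour of 501Mel cells. RAB3B (chromosome 1, 51907956 to 51990764, minus strand) had 558 and 258 counts, or 13.0 and 6.82 CPM, in 501Mel cells and 7, 23 and 7 counts, or 0.168, 0.563 and 0.233 CPM, in Hermes 3A cells. This is a log2 difference of 4.86 ± 0.56, the largest among the 29 members, and the lowest 501Mel library is above every Hermes 3A library by more than the 501Mel libraries differ. RAB3C (chromosome 5, 58582221 to 58859394) had 59.96 and 141 CPM in 501Mel cells and 6.03, 6.44 and 6.35 CPM in Hermes 3A cells, a log2 difference of 3.95 ± 0.35. The Hermes 3A libraries agree within 0.216 CPM (SD, n = 3) for RAB3C, whereas the 501Mel libraries differ by 2.36-fold. RAB3A, the most abundant family member in brain, went the other way, with 6.44 and 8.32 CPM against 9.96, 12.1 and 12.1 CPM and a log2 difference of -0.68 ± 0.25. The groups do not overlap for RAB3A, and 9.08% of its exons are shared with MPV17L2 on the opposite strand. RAB39A, a GTPase of endosomal traffic, had 9.34 and 6.52 CPM against 4.51, 5.26 and 6.35 CPM, a log2 difference of 0.50 ± 0.30 with groups that nearly touch.

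Calcium sensors differed in both directions. SYT5 (chromosome 19, 55171199 to 55180441), a calcium-binding synaptotagmin, had 2.86 and 2.91 CPM in 501Mel cells and 13.8, 30.5 and 26.2 CPM in Hermes 3A cells, a log2 difference of -3.08 ± 0.37, or -3.35 without Hermes 3A replicate 1. Each Hermes 3A library is above both 501Mel libraries, which agree closely. DOC2A (chromosome 16, 30005509 to 30023270), a high-affinity calcium sensor linked to spontaneous release, had 83 and 97 counts in 501Mel cells and 3, 8 and 5 counts in Hermes 3A cells, a log2 difference of 3.89 ± 0.51. The Hermes 3A counts of DOC2A are at or just above the floor of 3 counts, and 4.43% of its exons overlap INO80E.

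SYT1, the fast calcium sensor of neurons, had 11 and 5 counts in 501Mel cells and 238, 21 and 18 counts in Hermes 3A cells. Replicate 1 accounts for most of that difference, since the log2 difference of -3.64 ± 1.30 is -1.54 without it. SYT1 was the only tested member that Hermes 3A replicate 1 had at more than 2-fold the level of each other Hermes 3A library. SYT2, the other fast sensor, had 0.953 and 0.475 CPM against 0.264, 0.538 and 0.200 CPM, and SYT3 had 0.465 and 0.026 CPM against 0.744, 1.00 and 0.732 CPM. The 501Mel value of SYT3 rests on 20 counts and 1 count, and exons of PPP1R12B on the opposite strand cover 27.2% of the SYT2 exons. SYT7, a slow high-affinity sensor, had 2.90 and 0.766 CPM against 0.408, 1.49 and 1.99 CPM and overlapped between the lines.

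SYT11, a synaptotagmin that does not bind calcium, was at 77.7 and 65.6 CPM in 501Mel cells and 33.1, 83.8 and 64.2 CPM in Hermes 3A cells, a log2 difference of 0.20 ± 0.32. The direction turns to -0.10 when Hermes 3A replicate 1 is left out. CPLX1, a complexin that clamps the SNARE complex, had 26.2 and 14.1 CPM against 2.74, 13.6 and 12.4 CPM. Both 501Mel values of CPLX1 exceed all Hermes 3A values, but the gap to replicates 2 and 3 is small, and the log2 difference of 1.03 ± 0.59 is 0.58 without replicate 1.

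Of the 6 vesicle proteins that passed the filter, SYNGR1, SYNGR3, SV2A and SYN3 were at a higher level in every Hermes 3A library than in either 501Mel library. The same held for 31.9% of all genes, and nothing is read from the count among 6 genes. SYNGR1 (chromosome 22, 39349925 to 39385588), a tetraspan protein of the vesicle membrane, had 7.74 and 9.56 CPM in 501Mel cells and 45.7, 70.2 and 63.0 CPM in Hermes 3A cells, a log2 difference of -2.84 ± 0.23. SYNGR3 (chromosome 16, 1989660 to 1994275), its paralogue, had 1.35 and 0.845 CPM against 7.83, 5.87 and 7.58 CPM, a log2 difference of -2.76 ± 0.39. Neither gene overlaps between the lines, and for both the lowest Hermes 3A library is more than 4 times the highest 501Mel library. SV2A (chromosome 1, 149903318 to 149917882), a vesicle glycoprotein and the target of levetiracetam, had 27.5 and 18.5 CPM against 65.7, 63.5 and 87.4 CPM, a log2 difference of -1.72 ± 0.24. SYN3, a synapsin of the vesicle surface, had 12 and 13 counts in 501Mel cells and 66, 94 and 53 counts in Hermes 3A cells, a log2 difference of -2.65 ± 0.45. Without Hermes 3A replicate 1 the log2 differences of SYNGR1, SYNGR3, SV2A and SYN3 were -2.99, -2.67, -1.77 and -2.75.

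SYP, synaptophysin, pointed the other way, with 86.4 and 158 CPM in 501Mel cells and 26.7, 71.8 and 74.2 CPM in Hermes 3A cells. The groups do not overlap, yet the 501Mel libraries differ by more than the gap between the lines, and the log2 difference of 1.04 ± 0.43 is 0.69 without Hermes 3A replicate 1. SYN1, the first synapsin, had 4.74 and 2.22 CPM against 0.696, 3.43 and 3.79 CPM, and its log2 difference of 0.36 ± 0.68 turns to -0.11 without that library. Exons of other genes, ARAF among them, cover 8.37% of the SYN1 exons. Of the low members, SYN2 had 4 and 1 counts in 501Mel cells against 5, 7 and 16 in Hermes 3A cells, SV2B had 5 and 8 against 2, 17 and 6, and SV2C had 8 and 9 against 9, 2 and 1.

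Of the endocytosis genes, DNM1 (chromosome 9, 128191655 to 128255248), the dynamin of nerve terminals that severs endocytic vesicles, had 19.1 and 18.4 CPM in 501Mel cells and 1.51, 6.02 and 4.59 CPM in Hermes 3A cells. The log2 difference was 2.17 ± 0.49, or 1.77 without Hermes 3A replicate 1, and no library overlaps. SYNJ1, the phosphatase that uncoats recovered vesicles, had 54.6 and 65.0 CPM against 49.02, 62.2 and 73.2 CPM, the smallest difference of the 29 (log2 -0.10 ± 0.19).

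**Figure D2:**
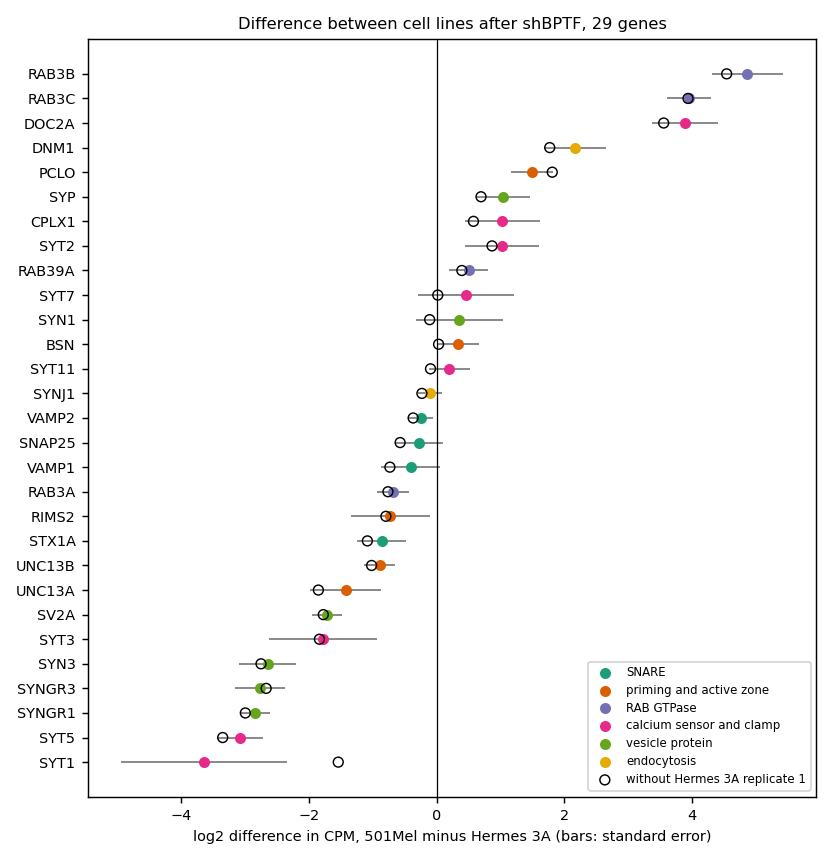
Log2 difference, 501Mel minus Hermes 3A, as fitted by edgeR with TMM scaling, for the 29 genes that passed the filter. Genes are ordered by size and coloured by role, with bars of 1 SE. Open circles give the difference without Hermes 3A replicate 1. RAB3B (4.86) and RAB3C (3.95) stand at one end, SYT1 (-3.64) and SYT5 (-3.08) at the other, and SYT1 moves most, to -1.54.

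As a description of the 29 members beside all genes, 11 fell under an adjusted p of 0.05 in the edgeR quasi-likelihood fit, 5 higher in 501Mel cells (PCLO, RAB3B, RAB3C, DOC2A and DNM1) and 6 lower (UNC13B, SYT5, SYN3, SYNGR1, SYNGR3 and SV2A). Of all 17918 genes tested, 48.4% were called, 24.3% as higher and 24.1% as lower in 501Mel cells. With a 2-fold change also asked for, 10 members were called, against 34.3% of all genes. The libraries of the lines did not overlap for 18 members, 8 higher and 10 lower in 501Mel cells, against 69.9% of all genes (38.0% higher, 31.9% lower). The median log2 difference was -0.25 for the 29 members and 0.02 for all genes, and the median absolute difference 1.03 and 0.786. Since this contrast was known when the members were chosen, nothing is read from these counts. Without Hermes 3A replicate 1 there were 5 higher and 10 lower, with RAB3A, STX1A, SYT1 and UNC13A added, against 52.3% of all genes called. In bulk RNA, fewer cells that express a gene and less of its RNA per cell cannot be told apart.

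The make-up of several families differed between the lines. Of the RAB3 RNA, counted as CPM per kb over RAB3A, RAB3B, RAB3C and RAB3D, RAB3C made up 53.4% ± 13.4 (SD, n = 2) in 501Mel cells against 3.97% ± 0.278 (SD, n = 3) in Hermes 3A cells. RAB3D, a RAB3 of secretory cells that is no member of the set, made up 19.5% ± 6.16 and 57.5% ± 5.57, and RAB3A 22.4% ± 3.81 and 38.3% ± 5.22. RAB3B stayed a minor form by this measure even in 501Mel cells, at 4.71% ± 3.44 against 0.156% ± 0.109. The family total per kb was nearly level, at 18.7 CPM per kb ± 6.47 in 501Mel cells against 16.4 ± 0.635 in Hermes 3A cells.

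SYT11 led the 6 synaptotagmins of the set that passed the filter. It made up 93.1% ± 1.68 of their RNA in 501Mel cells against 67.7% ± 4.53 in Hermes 3A cells, where SYT5 took 26.2% ± 1.16 against 3.70% ± 0.552. SYT17, outside the set, also passed the filter and is not in these shares. SYNGR2, the synaptogyrin of non-neuronal cells, led its family in both lines, at 86.6% ± 0.0315 and 59.4% ± 6.42, and SYNGR1 reached 32.7% ± 7.17 in Hermes 3A cells against 10.6% ± 1.06 in 501Mel cells. UNC13A took 60.1% ± 6.94 of UNC13A plus UNC13B in 501Mel cells against 63.4% ± 14.98 in Hermes 3A cells, with a range of 46.4% to 74.5% over the Hermes 3A libraries. In 3 further families the same member led in both lines, VAMP2 over VAMP1 (89.3% ± 2.78 and 88.7% ± 3.30), SV2A over SV2B and SV2C (99.3% ± 0.366 and 99.8% ± 0.0922) and CPLX1 over CPLX2 (99.9% ± 0.128 and 99.98% ± 0.0348). SYN1 made up 92.2% ± 3.72 of the synapsin RNA in 501Mel cells against 57.9% ± 18.3 in Hermes 3A cells. In Hermes 3A replicate 1 SYN3 led, at 58.9% against 36.8% for SYN1, while SYN1 had 66.5% and 70.4% in replicates 2 and 3. By the longest transcript the Hermes 3A means were 49.1% for SYN1 and 46.2% for SYN3. These shares rest on low counts, such as 12 and 13 for SYN3 in 501Mel cells and 29 for SYN1 in Hermes 3A replicate 1.

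Replicates of one line were also compared, where the difference between the lines plays no part. The counts were in view when the members were chosen, and some members passed the filter through one line alone. The shares of members given here are therefore a description, and nothing is read from them. Members with low counts add counting error to the spread, such as RAB3B (7, 23 and 7 counts) and DOC2A (3, 8 and 5 counts) in Hermes 3A cells. In Hermes 3A cells the highest library exceeded the lowest by a median of 2.21-fold for the 29 members and 1.4-fold for all genes, and by over 2-fold for 17 members, against 25.3% of all genes. Between replicates 2 and 3 alone the medians were 1.27 and 1.14, and 2 members (RAB3B and SYT2) differed by over 2-fold, against 8.32% of all genes. In 501Mel cells the medians were 1.43 and 1.23, and 6 members (RIMS2, RAB3C, SYT2, SYT3, SYT7 and SYN1) differed by over 2-fold between the 2 libraries, against 11.9% of all genes.

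Hermes 3A replicate 1 had the lowest level of the 3 libraries for 23 of the 29 members, against 46.5% of all genes, and the highest for 3 (SYT1, SYNGR3 and PCLO), against 33.0%. For 10 members it had less than 0.5 of the level in each other Hermes 3A library, against 8.96% of all genes. These were SYN1, SYT7, SYP, DNM1, UNC13A, SNAP25, VAMP1, DOC2A, BSN and CPLX1, which belong to all the roles except the RAB GTPases. The mean of replicates 2 and 3 exceeded replicate 1 by 5.18-fold for SYN1, 4.75-fold for CPLX1, 4.27-fold for SYT7, 4.10-fold for UNC13A and 3.51-fold for DNM1. Outside the set, the granin CHGA and the granule priming factor CADPS were also low there. CHGA had 0.360 CPM against 4.85 and 3.89 CPM, and CADPS 13.4 CPM against 80.8 and 79.7 CPM. Of the 46 tested genes of general membrane fusion, none had less than 0.5 of the others in replicate 1. Of the other presynaptic genes described further on, 4 of 38 had less than 0.5 of the others, and of the 13 neuronal and granin genes 5 had less than 0.5 and 3 (INA, SCG5 and GAP43) had over 2-fold more. The labels do not say how the Hermes 3A replicates differed. Melanocyte markers moved both ways, with TYRP1 at 16461 CPM in replicate 1 and 10047 and 9353 CPM in replicates 2 and 3, and PMEL at 12514 CPM against 18805 and 19182 CPM, and their part in the result was not tested.

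Levels in 501Mel replicate 1 were over 2-fold above replicate 2 for 5 members (SYN1, SYT7, SYT2, RIMS2 and SYT3), against 8.28% of all genes, and RAB3C was over 2-fold above in replicate 2. SYN1 and SYT7, which were high in 501Mel replicate 1, were also among the members lowest in Hermes 3A replicate 1, and their log2 differences between the lines turned to -0.29 and -0.80 without 501Mel replicate 1.

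**Figure D3:**
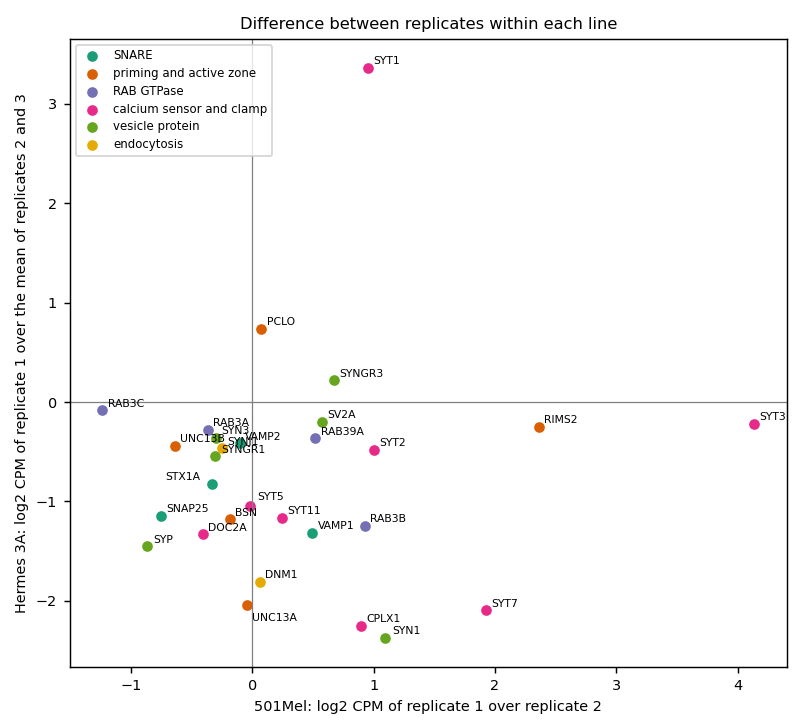
Difference between replicates for the 29 genes, as log2 CPM of replicate 1 over replicate 2 in 501Mel cells (horizontal axis) and of replicate 1 over the mean of replicates 2 and 3 in Hermes 3A cells (vertical axis), coloured by role. Most points lie below 0 on the vertical axis, with SYN1 at -2.37 and CPLX1 at -2.25, and SYT1 stands alone at 3.36.

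Other genes of the presynaptic terminal, general membrane fusion genes and neuronal genes were tested as lists drawn from textbook function. Earlier results of these data were known when the lists were drawn, so their counts are not independent evidence of a direction. Of 58 presynaptic genes, 54 were listed in both lines and 38 tested, and 7 were higher and 11 lower in 501Mel cells, which is 18.4% and 28.9% beside 24.3% and 24.1% of all genes. CADPS2, a priming factor of dense-core granules, was the gene furthest up, with 25.9 and 34.2 CPM in 501Mel cells and 0.192, 0.098 and 0.100 CPM in Hermes 3A cells (log2 difference 7.73 ± 0.38, adjusted p = 2.39e-05). CADPS2 had 8, 4 and 3 counts in Hermes 3A cells, at or just above the floor of 3 counts, so the size of its fold is uncertain. Its paralogue CADPS was lower, with 9.39 and 5.55 CPM against 13.4, 80.8 and 79.7 CPM (log2 -3.00 ± 0.74, adjusted p = 0.0133), so that the pair was split between the lines as the RAB3 genes were.

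Also higher in 501Mel cells were RAB3IP, an exchange factor whose name comes from binding RAB3 (log2 3.50 ± 0.50, adjusted p = 0.00148), SNCB, beta-synuclein (3.17 ± 0.41, adjusted p = 9.44e-04), and RIMS4, a short RIM protein (3.17 ± 0.73, adjusted p = 0.0102), whose call is lost without 501Mel replicate 1 (log2 2.43). SYNPR, synaptoporin, a close relative of SYP, was lower, with 0.186 and 0.211 CPM in 501Mel cells and 9.10, 24.1 and 36.8 CPM in Hermes 3A cells (log2 -6.91 ± 0.74, adjusted p = 4.53e-04). SLC17A6, a vesicular glutamate transporter, had 0.116 and 0.106 CPM against 10.3, 6.83 and 16.3 CPM (log2 -6.68 ± 0.60, adjusted p = 2.26e-04). The 501Mel counts of SYNPR (8 and 8) and SLC17A6 (5 and 4) were close to the floor, so the sizes of these folds are uncertain as well. AMPH, amphiphysin, and RPH3A, rabphilin, had at most 3 counts in 501Mel cells against 22 to 101 and 12 to 31 counts in Hermes 3A cells (adjusted p = 0.00351 and 0.00473), and no fold is given for them. RAB3D, the paralogue of the RAB3 members, was lower in 501Mel cells, with 14.9 and 15.6 CPM against 47.4, 36.6 and 41.1 CPM (log2 -1.52 ± 0.20, adjusted p = 0.00106).

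The general fusion list holds SNAREs and traffic genes outside the synapse, some of them specialised, such as SYTL5, RAB27B and VAMP5. Of 48 genes, 46 were tested, and 21 (45.7%) were lower and 4 (8.70%) higher in 501Mel cells, beside 24.1% and 24.3% of all genes. The median log2 difference was -0.54 against 0.02 for all genes. With a 2-fold change also asked for, 10 were lower and 1 was higher. VAMP5 had 1 and 0 counts in 501Mel cells and 398 to 511 counts in Hermes 3A cells (adjusted p = 5.66e-05), and RAB27B, a paralogue of the melanosome GTPase RAB27A, had 3 and 3 counts against 51 to 166 (adjusted p = 8.93e-04). SYTL5, a RAB27 effector, had 20 and 3 counts against 1189 to 2483 (adjusted p = 1.17e-04), and VAMP8, an endosomal SNARE, was also lower (log2 -4.76 ± 0.38, adjusted p = 1.42e-04). Higher in 501Mel cells were RAB39B, the paralogue of RAB39A, with 51 and 45 counts against 1, 10 and 1 (log2 3.42 ± 0.78, adjusted p = 0.00994), VAMP7 (0.97 ± 0.14, adjusted p = 0.00140), STX17 (0.78 ± 0.19, adjusted p = 0.0123) and STX3 (0.55 ± 0.15, adjusted p = 0.02001). The STX17 call is lost without 501Mel replicate 1 (log2 0.72) and without Hermes 3A replicate 2 (0.72) or 3 (0.70), and the STX3 call without 501Mel replicate 2 (0.42) and without Hermes 3A replicate 2 (0.57) or 3 (0.44).

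Neuronal genes without a part in release and granin genes formed the last list. Of 17 genes, with REST counted among them, 13 were tested, 2 were higher in 501Mel cells (GAP43 and SCG3) and 2 lower (STMN2 and TUBB3). That is 15.4% in each direction, beside 24.3% of all genes higher and 24.1% lower. TUBB3, neuronal tubulin, had 2.35 and 2.96 CPM in 501Mel cells and 20.8, 40.7 and 38.5 CPM in Hermes 3A cells (log2 -3.70 ± 0.35, adjusted p = 2.67e-04), and STMN2, a neuronal stathmin, had 14 and 0 counts against 216 to 399 (adjusted p = 0.00300). GAP43, a growth cone protein, had 39 and 10 counts in 501Mel cells against at most 2 in Hermes 3A cells (adjusted p = 0.00890). SCG3, a granin-binding protein, had 60.6 and 18.8 CPM against 4.25, 12.7 and 15.6 CPM (log2 1.82 ± 0.59, adjusted p = 0.0382), and this call is lost without Hermes 3A replicate 1 (log2 1.43, adjusted p = 0.0573), without Hermes 3A replicate 2 (log2 1.88) and without 501Mel replicate 1 (log2 0.75). GAP43 did not pass the low count filter without 501Mel replicate 1. REST did not pass the test, with a log2 difference of -0.09 ± 0.17 (adjusted p = 0.673).

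**Figure D4:**
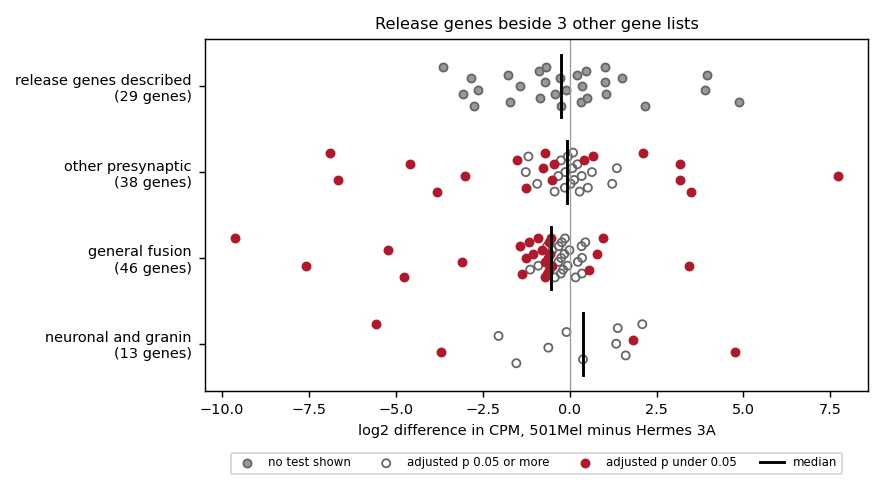
Log2 difference, 501Mel minus Hermes 3A, as fitted by edgeR with TMM scaling, for the 29 release genes and for the tested genes of the presynaptic (38), general fusion (46) and neuronal and granin (13) lists. Each point is 1 gene, and the vertical position within a row is arbitrary. Filled red points passed an adjusted p of 0.05, open points did not, grey points carry no test, and the black line is the median, which lies at -0.54 for the general fusion genes.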

How the data were processed

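Total RNA of shBPTF cells had been depleted of rRNA and the libraries treated with duplex-specific nuclease, a step meant to lower abundant cDNAs, whose effect on levels was not measured here. Per the labels' processing notes, CASAVA 1.8, TopHat 1.4.1, Bowtie 0.12.7 and build hg19 were used. The counting program, annotation and strand setting are not given in the sources used here. The authors deposited whole, unnormalized read counts for each Ensembl gene.

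Gene names, exon lengths and coordinates came from GENCODE 29 on GRCh38, which is not the authors' build. CPM are counts scaled to a common library total, without TMM factors. Log2 differences between the lines come from the edgeR fit with TMM factors, so they are not exact ratios of the CPM given. Counts of the 31029 genes listed in both lines were fitted with edgeR 4.0.16 (quasi-likelihood test, TMM, filterByExpr with a minimum count of 10) in R 4.3.3, with Benjamini-Hochberg adjustment over 17918 genes, and the SE is the log2 difference over the root of F. DESeq2 1.42.0 and the other alternatives are under the dependence on processing. The script was tested on simulated counts.

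Samples were grouped by cell line. The labels do not say whether replicates were separate cultures, so p-values measure the spread between these libraries. No 2 libraries agreed within counting noise. The members and lists were chosen with earlier results of these data known. Every member is accounted for. Of each other list, up to 4 genes per direction were named, those with the largest change among called genes whose groups do not overlap. CADPS, RAB3D, REST, CHGA, TYRP1, PMEL, INA and SCG5 were named after their values were seen. SEC22B, SYT10, CPLX3, DOC2B, NEFL and KRT5 were not found under their GENCODE 29 identifiers.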

Additional observations from a re-analysis of the deposited data

Results flagged for a closer look

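SYT4, a synaptotagmin, was listed in the 501Mel files alone and so stood in no comparison. Its 4 and 7 counts there, a mean of 0.139 CPM, are above the floor of 3 counts in both libraries, and no value of a control library was analysed here.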

How the results depend on the processing

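The files of the lines list different genes, so members were compared only where both list them, and depth limits RIMS1, SNAP91, CPLX2, SYN2, SV2B and SV2C. With 1 library of 501Mel cells left, that library is assumed to vary as the Hermes 3A libraries do. Other scalings (RLE size factors, total counts) turned no direction of a named gene, and they moved the median log2 difference of all genes from 0.0234 to between 0.00944 and 0.0865, while testing without the low count filter moved it to 0.131.

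The number of members lower in 501Mel cells was 10 with DESeq2 and 10 without Hermes 3A replicate 1, against 6. It was 7 without Hermes 3A replicate 2 or 3, with 5 higher whichever Hermes 3A library was left out. Of all genes, 49.6% were called with DESeq2, and 52.3%, 39.2% and 38.1% without Hermes 3A replicates 1, 2 and 3. This contrast was known when the members were chosen, so nothing is read from any count of members called. Without 501Mel replicate 1, UNC13B (log2 -0.61) was no longer among those lower, and RIMS2 and SYT3 were added. Genes higher in 501Mel cells over the whole table numbered 2871 to 4595, the lowest without 501Mel replicate 1. Other presynaptic genes numbered 4 (without 501Mel replicate 1) to 7 higher and 7 (without 501Mel replicate 2) to 13 lower, and 7 lower with the 2-fold rule. General fusion genes numbered 2 (without Hermes 3A replicate 2 or 3) to 4 higher, and 1 higher and 10 lower with the 2-fold rule. Neuronal and granin genes numbered 0 (without 501Mel replicate 1) to 3 higher, 1 of them without Hermes 3A replicate 2, and 2 to 4 lower, with 4 lower without 501Mel replicate 1 and 4 without the low count filter. Beside that 0 from edgeR, 1 of 12 genes tested was higher at an unadjusted p under 0.05. No cause of these changes in number was tested, fewer libraries and fewer conditions met included. By the longest transcript, SYT11 made up 91.1% (501Mel) and 60.2% (Hermes 3A) of the RNA of the 6 synaptotagmins of the set.

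With libraries left out in turn, the log2 difference turned sign for SNAP25 (-0.74 to 0.045, without 501Mel replicate 1), SYT7 (-0.80 to 1.10, without 501Mel replicate 1), SYT11 (-0.10 to 0.43, without Hermes 3A replicate 1), SYN1 (-0.29 to 0.78, without either) and SYNJ1 (-0.26 to 0.0237, without 501Mel replicate 1 or Hermes 3A replicate 3).

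Replicates 1 and 2 carry the same numbers in both lines, but nothing in the labels pairs them. Deviations of same-numbered libraries from the mean of their line correlated at 0.104 and 0.121. With 2 libraries of 501Mel cells the deviations mirror each other, so the crossed pairs gave -0.104 and -0.121. These values therefore cannot decide whether libraries were paired. Fitting the replicate number as a block called 7496 genes (41.8%), and the members were 6 higher and 7 lower, general fusion genes 2 higher, and SYNJ1 turned to 0.0415.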
